A study of Arabidopsis thaliana with 3 samples.

Results

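Plant U-box (PUB) proteins are ubiquitin ligases, and 22 of the 27444 nuclear protein-coding genes in the reference table carry a symbol made of PUB and a number. They were chosen by that symbol alone, and the grouping into immune and other members was made by known role. The table also names 1 gene, SAUL1, with PUB44 among its synonyms, and U-box genes under other symbols were not analysed here. Chromatin was immunoprecipitated with an antibody against GFP from 14-day-old Arabidopsis thaliana seedlings of genotype dek2-1, pDEK2::DEK2-YFP, that is dek2-1 mutants with a DEK2-YFP fusion driven by the DEK2 promoter. The labels give no treatment for these libraries and do not say how many transgenic lines were used. Peaks were listed separately for 2 replicates of this 1 group, and the labels list 1 input sample without saying whether it served as the control for peak calling. An immunoprecipitate from untagged plants was not used here, so a peak marks enrichment over the peak caller's modelled background.

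A U-box is a short domain with a RING-like fold that docks a ubiquitin-conjugating enzyme, and the ligase passes ubiquitin to a chosen substrate. Many of the plant proteins carry armadillo repeats beside the U-box, which bind substrates or receptor kinases. In leaves and seedlings several of them set the strength of pattern-triggered immunity: PUB22, PUB23 and PUB24 dampen it, PUB12 and PUB13 send the flagellin receptor FLS2 to degradation, and PUB25 and PUB26 do the same to non-activated BIK1, the kinase below that receptor. DEK proteins bind chromatin and DNA, and the series title ties DEK2 to reading histone marks and to plant immunity.

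Replicate 1 held 25742 peaks with a median fold enrichment of 1.82 and a median width of 465 bp, and replicate 2 held 13307 with 2.02 and 259 bp. Fold enrichment is the authors' value for each peak, the ratio of the summit's fragment pileup to the background that the peak caller modelled. The commonest background implied by the peak values was 54.1 in replicate 1, in units that are not whole fragments, and 22.1 fragments in replicate 2. The part of depth in the lists' differences was not tested, and folds and widths are read within a replicate. The series design text speaks of biological replicates of wild-type and dek2-1 plants, and nothing says whether these 2 immunoprecipitates came from separate plants, so their differences could be technical. With 1 group and 2 lists the design allows no test between conditions, and members are not replicates. Counts over the PUB genes are therefore set beside the same counts over all coding genes without a p-value.

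The first question was how many PUB genes carry a DEK2-YFP summit, inside the gene or within 500 bp of either end. Replicate 1 had such a summit at 20 of 22 PUB genes (90.9%), against 66.7% of all coding genes. Replicate 2 had one at 9 PUB genes (40.9%), against 37.0% of all coding genes. A peak is termed shared when peaks of both replicates overlap over 50% or more of the shorter one, and its replicate 1 summit places it. Shared-peak summits marked 8 PUB genes (36.4%), against 34.2% of all coding genes, which is close to the background. These were PUB4, PUB14, PUB17, PUB19, PUB23, PUB25, PUB38 and PUB45. PUB9 had a summit in each replicate from peaks that did not overlap. A further 11 PUB genes (50.0%, against 31.3% of all coding genes) had a summit in replicate 1 and none in replicate 2, and PUB15 and PUB26 had none in either.

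PUB genes are of ordinary length, with a median of 2223 bp against 2078 bp for all coding genes and a range of 1125 to 4068 bp. Longer genes are marked more often, so the background was also taken from the coding genes in the same length bins, 20 bins of equal gene number. Averaged over the members' bins, 73.6% of coding genes had a replicate 1 summit, 41.3% a replicate 2 summit and 38.2% a shared-peak summit. The share of PUB genes was thus higher than that of genes of their length in replicate 1, and slightly below it in replicate 2 and for shared peaks. Among the 8 members of 1125 to 2046 bp, 3 were marked by a shared-peak summit, and 32.2% of the 8122 coding genes of that length were. Among the 7 members of 2047 to 2640 bp it was 1, PUB19, against 39.6% of 4852 coding genes. Among the 7 members of 2641 to 4068 bp it was 4, against 42.6% of 6061 coding genes.

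**Figure D1:**
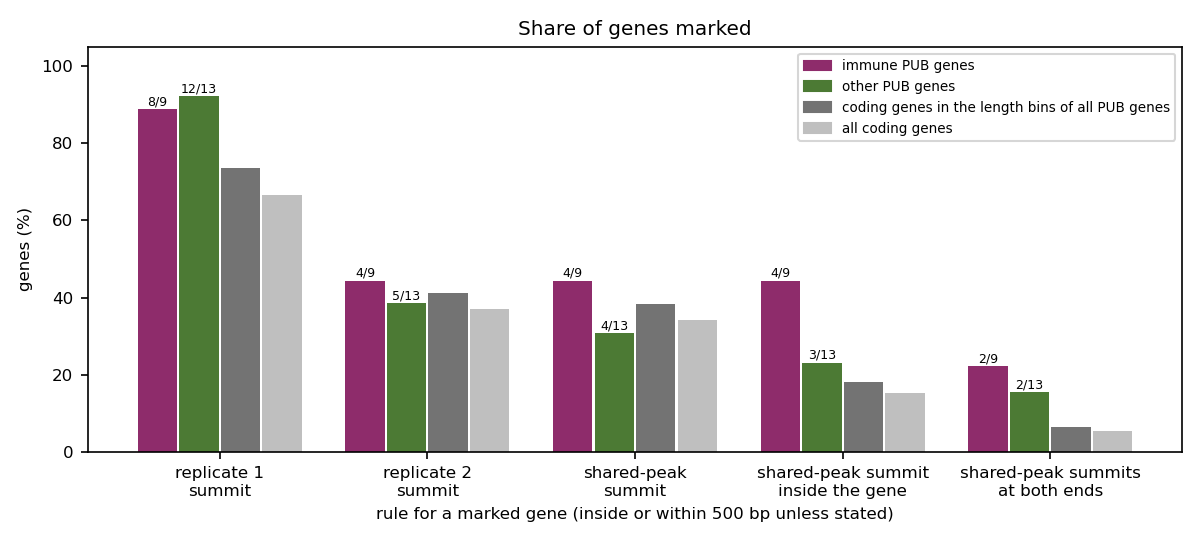
Share of genes marked under 5 rules (y axis, percent of genes) for the 9 immune PUB genes, the 13 other PUB genes, coding genes in the length bins of all PUB genes, and all coding genes. Bars are counts over genes and have no error bars; in replicate 1 the PUB genes stand at 88.9% and 92.3%, above both backgrounds, while for shared-peak summits they stand at 44.4% and 30.8%, on either side of them.

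The window admits summits outside a gene only within 500 bp of an end, so closeness to the ends is partly set by that rule. Of the 31 replicate 1 summits at PUB genes, 16 (51.6%) lay inside the gene within 500 bp of an end and 15 outside, and none lay deeper than 314 bp. Coding genes of the PUB length range had 39.3% of their 20618 summits inside and near an end, and 6.40% more than 500 bp from both ends. The 15 replicate 2 summits at PUB genes divided into 6 inside and 9 outside, the deepest at 310 bp. The median distance to the nearest end was 156 bp in replicate 1 and 227 bp in replicate 2, against 140 and 164 bp over all coding genes. Of the 31 summits, 14 (45.2%) were nearer the end at the lower coordinate, against 50.2% in coding genes of that length range. The reference table gives no strand, so the ends are named by coordinate and the start of transcription cannot be told from its end.

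Shared-peak summits lay inside the gene at 7 PUB genes (31.8%), against 15.3% of all coding genes and 18.1% of those in the same length bins. The members were PUB4, PUB17, PUB19, PUB23, PUB25, PUB38 and PUB45. Placement was by the replicate 1 summit, and at PUB23, PUB38 and PUB45 the replicate 2 summits lay outside the gene. In replicate 2 alone, 4 PUB genes had a summit inside. PUB14 had no shared summit inside, and PUB17, PUB19, PUB25 and PUB45 each had another one outside. The count of 7 depended on which peaks were admitted. Where both lists had to reach a −log10 q of 5 it was 3, and the share stayed above that of all coding genes (13.6%, against 4.90%). With replicate 1 reduced to its 13307 best peaks by q it was 2, and the share was below that of all coding genes (9.09%, against 11.0%). Both ends carried a shared-peak summit in 4 PUB genes, PUB17, PUB19, PUB25 and PUB45 (18.2%, against 5.44% of all coding genes and 6.48% in the same length bins). Each of the 4 had an end whose replicate 2 peak was under a −log10 q of 5: 2.91 and 4.86 at PUB17, 3.41 at PUB19, 1.79 at PUB25 and 4.30 at PUB45. In replicate 1 alone both ends carried a summit in 10 PUB genes (45.5%), against 26.9% of all coding genes and 31.1% in the same length bins.

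**Figure D2:**
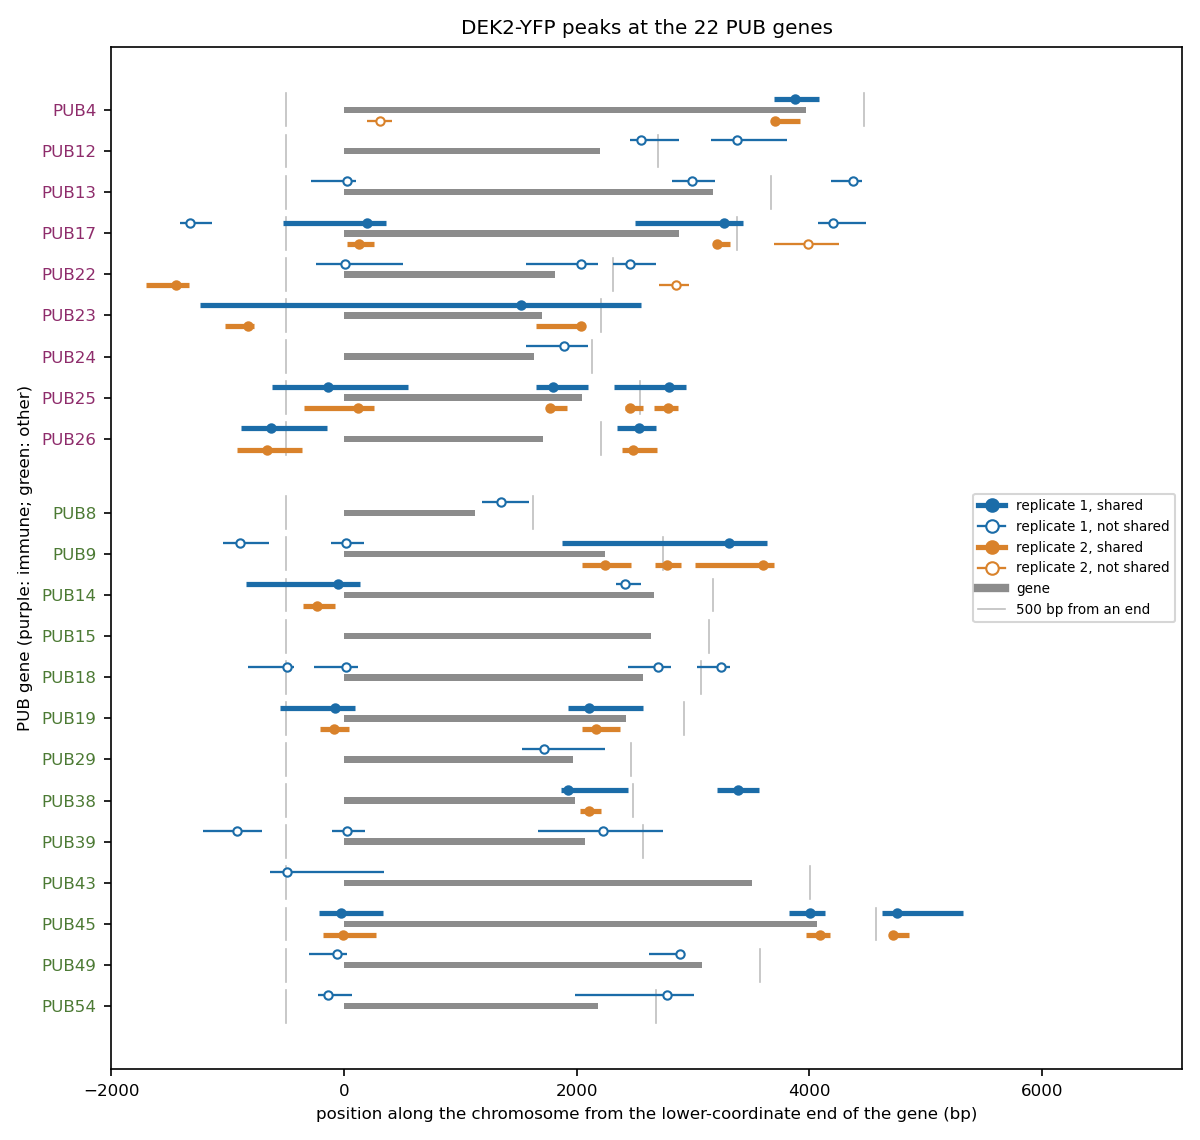
Peaks at the 22 PUB genes, with position in bp from the end of each gene at the lower coordinate (x axis) and 1 gene per row, immune genes above the others. Grey bars are genes, horizontal lines are peaks with a summit within 1500 bp, circles are summits, and filled circles with thick lines are shared peaks; replicate 1 lies above and replicate 2 below each gene. Summits more than 500 bp outside a gene are drawn but not counted, the 3784 bp peak of PUB23 covers the whole gene, and PUB26 has shared peaks on both sides just beyond 500 bp.

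PUB22 and PUB23, close relatives that restrain immune signalling together, differed in how the replicates marked them. PUB22 (AT3G52450, 1811 bp) had 2 replicate 1 summits and no replicate 2 summit in the window. The first, on chromosome 3 between 19440376 and 19441125 (TAIR10, as all coordinates here), had a fold enrichment of 2.32, a −log10 q of 14.6 and its summit 13 bp inside the gene. The second, from 19442184 to 19442797, had 2.07 and 13.5, with its summit 230 bp outside the other end. The nearest replicate 2 summits lay 1040 bp beyond the gene at one side (fold 1.95) and 1445 bp at the other (1.97). PUB22 was thus enriched at both ends in replicate 1 and had no listed peak there in replicate 2.

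At PUB23 (AT2G35930, 1705 bp) a single replicate 1 peak covered the whole gene. It ran over 3784 bp on chromosome 2, between 15081622 and 15085405, the 10th widest of the 25742 replicate 1 peaks, with a fold of 2.38 and its summit 183 bp inside. That summit also lies in the window of AT2G35935, a coding gene annotated within the span of PUB23. Replicate 2 had 2 peaks near its edges instead. One of 403 bp overlapped the end of the gene, with its summit 337 bp outside and a fold of 1.60 (53 fragments over a background of 32.7), and ranked 12664 of 13307. The other, of 254 bp and a fold of 2.41 (57 over 23.0), had its summit 821 bp beyond the opposite end and 2342 bp from the replicate 1 summit.

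PUB24 (AT3G11840, 1631 bp), another member of that trio, had 1 replicate 1 peak on chromosome 3 from 3738141 to 3738675. Its fold was 2.02, with the summit 261 bp outside and also near AT3G11850. No replicate 2 summit lay closer than 3624 bp. Of the 3 genes that dampen pattern-triggered immunity, all had a replicate 1 peak with a fold over 2, and only PUB23 had a peak counted as shared.

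PUB25 (AT3G19380, 2046 bp), a ligase for BIK1 and, in the cold, for the transcription factor MYB15, had the strongest PUB peak of replicate 1. That peak lay on chromosome 3 from 6713519 to 6714684, with a fold of 2.94, rank 480 of 25742 (98.1% of the list below it), a −log10 q of 31.9 and a summit 133 bp outside the gene. Replicate 2 had a peak of 2.24 within it (59 fragments over 25.8), with its summit 119 bp inside. At the other end a replicate 1 peak of 1.78 with its summit 252 bp inside matched a replicate 2 peak of 1.69 with its summit 271 bp inside. A further shared place had its replicate 1 summit 752 bp outside (2.34), with replicate 2 summits 416 and 740 bp outside (1.64 and 1.68). PUB25 was marked at both ends in both replicates. The first peak also lies near AT3G19370.

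PUB26 (AT1G49780, 1710 bp), which acts with PUB25 on both substrates, had no summit in the window and a shared peak on each side just beyond it. At the lower coordinate the summits lay 622 bp outside in replicate 1 (fold 1.76) and 658 bp in replicate 2 (1.90). At the higher coordinate they lay 828 bp (1.88) and 774 bp (2.42) outside. With a window of 1000 bp PUB26 counted as marked, which made 9 PUB genes (40.9%) against 40.8% of all coding genes. No other coding gene lies within 500 bp of those summits, and the lower one lies near a small nucleolar RNA gene.

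PUB12 and PUB13, the FLS2 ligases, had weak replicate 1 peaks only. PUB12 (AT2G28830, 2201 bp) had 1 with a fold of 1.53 and its summit 349 bp outside, and a stronger one of 2.17 with its summit 1174 bp outside. PUB13 (AT3G46510, 3167 bp) had 1 at each end, of 1.34 with its summit 30 bp inside and of 1.71 with its summit 176 bp inside. The nearest replicate 2 summit lay 3856 bp from PUB12 and 6706 bp from PUB13. Their substrate gene FLS2 had 1 summit in each replicate (1.49 and 2.54), from peaks that did not count as shared.

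PUB17 (AT1G29340, 2875 bp), which promotes defence and cell death and is the counterpart of tobacco ACRE276, was marked at both ends in both replicates. At the lower coordinate, replicate 1 had 1.63 and replicate 2 had 2.02, with summits 197 and 133 bp inside. At the higher coordinate, on chromosome 1 from 10266545 to 10267468, replicate 1 had 2.14 and replicate 2 had 1.95 (44 fragments over 22.1), with summits 392 and 333 bp outside. No other coding gene lies within 500 bp of these summits, so PUB17 is the nearest coding gene to each.

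PUB4 (AT2G23140, 3970 bp), which works with the chitin receptor kinase CERK1 and in root cell division, was marked at the end with the higher coordinate. Replicate 1 had 1.83 there, with the peak on chromosome 2 between 9849101 and 9849492 and the summit 94 bp inside, and replicate 2 had 1.79 with its summit 263 bp inside. A second replicate 2 peak, of 2.12 and 310 bp inside the other end, had no partner in replicate 1 and is also near AGP17.

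The 9 immune members were then set beside the 13 others. Immune members had a replicate 1 summit in 8 of 9 cases (88.9%) and the others in 12 of 13 (92.3%). Replicate 2 had a summit at 4 of 9 (44.4%) and 5 of 13 (38.5%), and shared-peak summits marked 4 of 9 (44.4%) and 4 of 13 (30.8%). Coding genes of the same lengths had shared-peak summits in 37.5% of cases for the immune members and 38.8% for the others. A shared-peak summit inside the gene was found at 4 of 9 immune members (44.4%, against 17.6% in their length bins) and at 3 of 13 others (23.1%, against 18.3%), and the difference was not tested. Where both lists had to reach a −log10 q of 5, inside summits stayed at 3 PUB genes (13.6%, against 4.90% of all coding genes). These were PUB23 of the immune members, and PUB19 and PUB38 of the others, placed by the replicate 1 summit. The replicate 2 partner that reached the limit had its summit 821 bp outside PUB23 and 128 bp outside PUB38. At PUB19 it was 258 bp inside. The replicate 2 partners of the inside peaks at PUB4, PUB17 and PUB25 had a −log10 q of 2.33, 4.86 and 1.79. Inside or within 500 bp, the same limit left 2 of the 9 immune members and 4 of the 13 others, against 12.5% of all coding genes. PUB23 was among them only through that partner 821 bp outside.

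The best fold enrichment per gene did not order the immune and other members the same way in both replicates. In replicate 1 the immune members ran from 1.53 to 2.94 with a median of 2.08 (8 genes), and the others from 1.38 to 2.34 with a median of 1.695 (12 genes), beside 1.93 for all coding genes with a summit. In replicate 2 the immune members ran from 1.60 to 2.24 with a median of 2.07 (4 genes), and the others from 2.09 to 2.30 with a median of 2.28 (5 genes), beside 2.04 for all coding genes. The sets overlapped in both replicates. All PUB genes together had medians of 1.85 in replicate 1 (20 genes) and 2.24 in replicate 2 (9 genes).

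**Figure D3:**
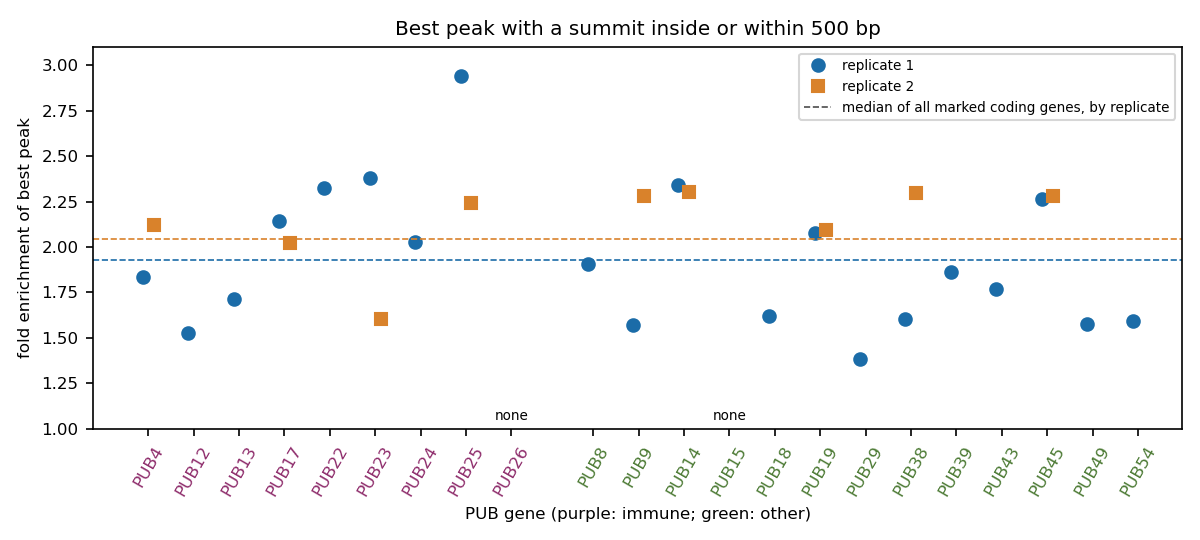
Fold enrichment of the best peak with a summit inside or within 500 bp of each PUB gene (y axis, no unit), immune genes left of the others, with circles for replicate 1 and squares for replicate 2. Dashed lines give the medians of all marked coding genes, 1.93 in replicate 1 and 2.04 in replicate 2; PUB25 is highest in replicate 1 at 2.94, and "none" marks PUB26 and PUB15, which had no summit.

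Among the other members, PUB14 and PUB45 had the best-ranked shared peaks. PUB14 (AT3G54850, 2668 bp) encodes the protein on which a plant U-box structure was solved. Its shared peak lay on chromosome 3 from 20320510 to 20321489, with 2.34 in replicate 1 and 2.30 in replicate 2 (53 fragments over 22.5) and summits 51 and 227 bp outside the gene, also near ARA6. A replicate 1 peak of 1.66 at the other end had no partner. PUB45 (AT1G27910, 4068 bp) had 2.26 and 2.28 at the lower coordinate, on chromosome 1 from 9720519 to 9721066, with summits 28 and 7 bp outside, near AT1G27900 too. At its other end it had 1.75 and 2.10, with summits 60 bp inside and 19 bp outside, and a further shared place lay 687 bp outside (1.86 and 1.96).

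PUB18 and PUB19, relatives that act in abscisic acid and drought responses, differed. PUB19 (AT1G60190, 2422 bp) was marked at both ends in both replicates. At the higher coordinate it had 2.08 in replicate 1 and 2.09 in replicate 2 (73 fragments over 34.4), on chromosome 1 from 22200192 to 22200833, with summits 314 and 258 bp inside and also near AT1G60200. At the lower coordinate it had 1.43 and 1.81, with summits 77 and 83 bp outside, 6 bp apart. PUB18 (AT1G10560, 2567 bp) had 3 replicate 1 summits in the window, with folds of 1.40, 1.60 and 1.62, and its nearest replicate 2 summit lay 3360 bp away.

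PUB38 (AT5G65200, 1982 bp) and PUB9 stood apart in how their replicates compared. PUB38 had a replicate 1 peak of 1.61, rank 19290 of 25742, with its summit 55 bp inside, and a replicate 2 peak of 2.30, rank 2559 of 13307, with its summit 128 bp outside. PUB9 (AT3G07360, 2245 bp), linked to abscisic acid responses, had a replicate 1 peak of 1.57 with its summit 16 bp inside the lower end, and a replicate 2 peak of 2.28 with its summit 1 bp beyond the higher end. That replicate 2 peak lies within a replicate 1 peak of 1758 bp and a fold of 2.29, on chromosome 3 from 2356513 to 2358270, which holds 3 replicate 2 peaks. The replicate 1 summit there lies 1064 bp from PUB9 and in the window of CHIP (AT3G07370), a neighbouring gene named here after its values were seen, whose product is another U-box ligase. Placed by its replicate 2 summit, this shared peak would make PUB9 the 9th marked member.

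The 7 remaining members with replicate 1 summits alone had best folds from 1.38 to 1.90. PUB8 (fold 1.90, summit 222 bp outside) and PUB39 (1.86, 156 bp outside, and 1.65, 31 bp inside) had the strongest. PUB39 belongs to a group of ligases that act on the brassinosteroid factor BZR1. PUB43 had 1.77, PUB54 1.59, PUB49 1.58 and 1.39, and PUB29 1.38. PUB18 completes the 7. PUB15 was the only member with no summit within 1500 bp, and its nearest summits lay 6360 bp away in replicate 1 and 6501 bp in replicate 2. The members nearest the 500 bp limit from inside were PUB43 at 488 bp and PUB18 at 487 bp, and beyond it lay a replicate 2 summit 534 bp from PUB9, a replicate 1 summit 596 bp from PUB54 and those of PUB26.

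Among close relatives, with 34.2% of all coding genes marked by a shared-peak summit, PUB23, PUB25 and PUB19 were marked while their partners PUB22, PUB26 and PUB18 were not, and neither PUB12 nor PUB13 was. At such a share little can be read from these pairs.

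Peak width was compared next. The best shared peak had a median width of 783 bp in replicate 1 and 263.5 bp in replicate 2 over the 8 marked members, against 620 and 278 bp over all marked coding genes, taking the strongest overlapping replicate 2 peak of each. In replicate 1 the widest were those of PUB23 (3784 bp), PUB25 (1166 bp), PUB14 (980 bp) and PUB17 (924 bp), and the narrowest that of PUB4 (392 bp). In replicate 2 the peak of PUB25 was the widest of these at 598 bp, and that of PUB17 had 150 bp, the smallest width in that list. Over all 31 replicate 1 peaks with a summit in the window, the median width was 446 bp, against 476 bp over all coding genes. Immune members had a median of 574.5 bp (12 peaks) and the others 389 bp (19 peaks). In replicate 2 the medians were 222.5 bp (8 peaks) and 273 bp (7 peaks), so the order turned round.

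Replicate 1 peaks at PUB genes were found again in replicate 2 about as often as peaks of their strength. Of the 31 peaks 12 were shared (38.7%), against 42.0% of all replicate 1 peaks. All replicate 1 peaks within 5% of the same folds were shared in 36.6% of cases on average. Immune members had 6 of 12 peaks shared (50.0%, 46.9% for peaks of like fold) and the others 6 of 19 (31.6%, 30.1% for peaks of like fold). The lower peak of PUB22 is the strongest PUB peak without a partner. Among 2430 replicate 1 peaks within 5% of its fold of 2.32, 73.7% had a partner. At the other extreme, the lower peak of PUB19 had a partner at a fold of 1.43, where 14.4% of like peaks did. The PUB38 peak, at the higher coordinate, had a partner at 1.61, where 20.9% did.

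**Figure D4:**
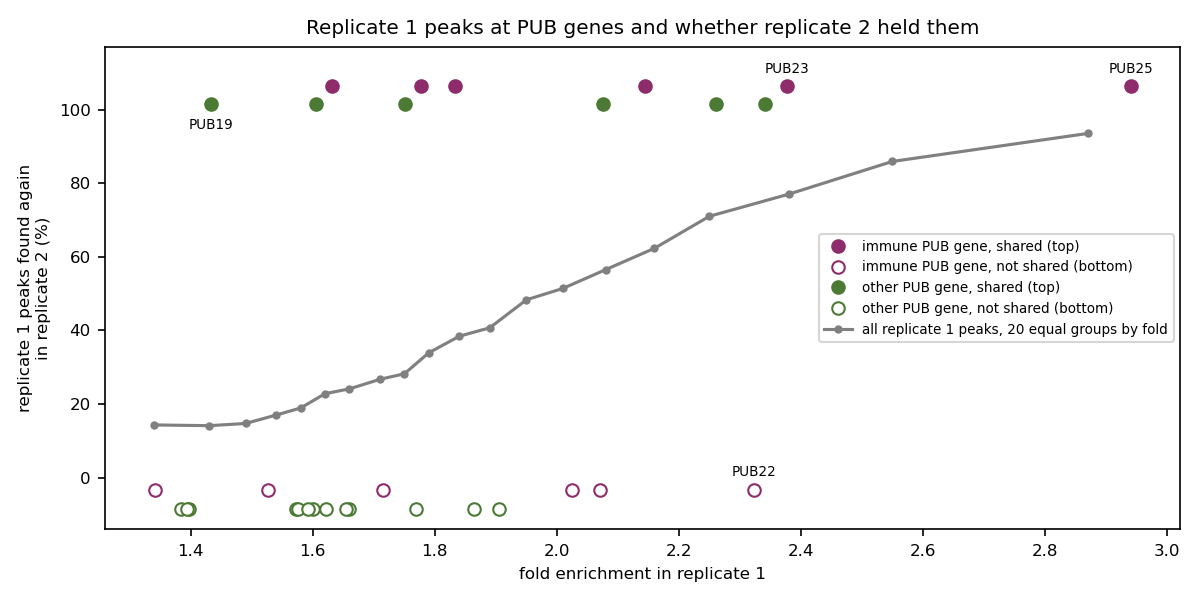
Replicate 1 peaks by fold enrichment (x axis, no unit) and the percent found again in replicate 2 (y axis). The grey line joins 20 equal groups of all replicate 1 peaks, from 14.3% in the group of lowest fold to 93.5% in that of highest fold. Circles are the 31 peaks at PUB genes, filled at the top where shared (12) and open at the bottom where not, and PUB22 at 2.32 lies rightmost among the open ones.

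Some PUB summits also lie near a neighbouring gene. Of the 31 replicate 1 summits 12 lay in the window of another coding gene, as did 4 of the 15 in replicate 2, beside 6713 of 20391 and 2962 of 9997 summits at all coding genes. So did 5 of the 12 shared PUB summits (PUB14, PUB19, PUB23, PUB25 and PUB45, 1 each). Which gene such a peak belongs to was not tested. PUB4, PUB17 and PUB38 were marked by shared-peak summits without another coding gene in reach, and so were the second ends of PUB19, PUB25 and PUB45.

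Genes listed as targets and partners of PUB proteins were looked at alongside the ligase genes, without matching for length. Of 17 such genes, 17 had a replicate 1 summit, 11 a replicate 2 summit and 10 a shared-peak summit, beside 20, 9 and 8 of the 22 PUB genes and 66.7%, 37.0% and 34.2% of all coding genes, and no difference was tested. MPK3, the immune cascade kinase that phosphorylates PUB22, had 3.29 in replicate 1 and 2.14 in replicate 2. MYB15 had 3.00 and 1.68, EXO70B1, the vesicle-tethering target of PUB18, had 2.21 and 1.91, CERK1 had 2.10 and 1.95, and CPK28, the kinase that activates PUB25 and PUB26, had 2.59 and 2.40. MYC2, ABI1, LYK5, BKI1 and PYL9 (RCAR1 in the table) were also marked by shared-peak summits. BIK1 (1.99) and EXO70B2 (1.81), the exocyst target of PUB22, had replicate 1 summits only. RPN12a, AAO3, BZR1 and SOC3 (AT1G17600 in the table) likewise had none in replicate 2, and neither did SAUL1 (replicate 1 fold 1.55), an immune U-box ligase guarded by SOC3.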

How the data were processed

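DEK2-YFP immunoprecipitates of 2 replicates were analysed from the peak list deposited for each. The submitters' processing notes name Trimmomatic 0.38, Bowtie2 2.3.5, SAMtools 1.9, MACS2 2.2.7.1 and TAIR10. Settings, the control used, duplicate removal and treatment of reads with several matches are not given in the sources used here. The deposited score is a whole number made from q, the deposited fold enrichment is a ratio of pileup to modelled background, and the deposited p-value and q-value columns are −log10 values, with none under 1.30 for q.

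Pileup and background were solved from the fold (1 added to both parts) and the Poisson p-value; pileups of replicate 2 came out whole, within 0.02, in 100% of peaks. Intervals were not computed, since the lists hold no counts of reads. Gene names and spans came from a RefSeq table of TAIR10.1 without strand, so none of its coordinates is printed. Moved in steps of 50 bp, shared summits fell inside coding genes least often, in 41.3% of cases, at a shift of 0, so peaks and spans are in register at that scale. No genome or sequence was used, and the planned look at promoter motifs and kinase domains was not run.

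The immune members were PUB4, PUB12, PUB13, PUB17, PUB22, PUB23, PUB24, PUB25 and PUB26. PUB2, PUB44 and other listed genes without a PUB symbol were left out. The members and lists were chosen with earlier results of these data known. Treatments and wild-type plants named in the series design text were not analysed here. Named genes are the immune members, members with a shared-peak summit, listed pairs and members nearest 500 bp; for completeness the rest are given briefly. On simulated data, with well separated genes and closely matching peaks, the code recovered 688 of 688 marked genes. This checks the code and not the calls. Python 3.11.15, pandas 2.3.3, numpy 2.4.6 and scipy 1.17.1 were used. The alternatives tried are in the closing section.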

Additional observations from a re-analysis of the deposited data

How the results depend on the processing

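Over 12 alternatives, 59 of 80 recomputed values stayed within 1.5 times the count or 1 SD of the replicates. That SD came from the medians of the 2 replicates only. For width it was 367 bp, which holds the gap between the 2 lists and is a loose limit. The 8 PUB genes marked by a shared-peak summit became 4 where the overlap had to reach 50% of each peak (18.2%, against 16.7% of all coding genes; 2 immune and 2 others), namely PUB4, PUB19, PUB25 and PUB45. From single lists they numbered 9 in replicate 2 (40.9%, against 37.0% of all coding genes) and 20 in replicate 1 (90.9%, against 66.7%). Immune members were 4 and 8 of them, and others 5 and 12. At a −log10 q of at least 5, immune members numbered 2, and 6 PUB genes (27.3%) remained, against 12.5% of all coding genes. PUB23 remained only through the replicate 2 peak with its summit 821 bp outside the gene (−log10 q 6.36). Its replicate 2 peak with a summit in the window had 1.80. With replicate 1 reduced to the length of the other list, 6 remained (27.3%, against 27.6%). The 20 PUB genes with a replicate 1 summit became 12 (54.5%, against 43.5%) in that reduced list. With summits inside the gene only, the 9 of replicate 2 became 4, and the share of all coding genes was not computed for that rule. Shared-peak summits inside the gene, 7 in all, numbered 3 with 50% of both peaks (13.6%, against 7.54% of all coding genes). They numbered 3 at the stricter q (13.6%, against 4.90%) and 2 with the reduced list (9.09%, against 11.0%). Single lists gave 15 in replicate 1 (68.2%, against 36.1%) and the 4 of replicate 2.

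The median replicate 1 fold of the best shared peak, 2.20, was 1.78 with summits inside the gene only, 2.14 with 1000 bp, 2.26 with whole peaks, 2.301 at the stricter q and with the reduced list. From single lists the median best fold was 1.85 in replicate 1 and 2.24 in replicate 2, each on its own list's scale. The median width of 783 bp is that of the replicate 1 peaks at the 8 genes with a shared peak. From single lists the best-fold peak had a median of 563 bp in replicate 1 (20 genes) and 326 bp in replicate 2 (9 genes). Over all coding genes these medians were 504 and 271 bp. Placing shared peaks by the replicate 2 summit, chosen after seeing the data, added PUB9. Counting synonyms added SAUL1 to the members and changed no shared count. A gene without a listed peak may be enriched below the threshold, which depends on depth, and the cause of these changes was not tested.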
